A study of Arabidopsis thaliana with 6 samples.

Results

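Chlorophyll, heme and the bilin chromophore of the phytochromes are tetrapyrroles, made in the plastid by a shared pathway. The genes described here are the 34 nuclear loci of *Arabidopsis thaliana* that encode this pathway from glutamyl-tRNA to chlorophyll, heme and bilin, together with *GUN4*, *FLU* and other regulators. Members were picked out by locus identifier, and no measured value enters that rule, although earlier results of these data were known when the pathway was chosen. All 34 of them are among the 30865 genes of the deposited count table and in the deposited FPKM table, and all 34 passed the filter on low counts. Messenger RNA was sequenced from untreated whole seedlings, 9 days old, on 1/2 MS medium with 1% sucrose. There were 3 libraries of the wild type, Col-0, and 3 of the nup50c mutant, named for a member of the NUP50 family of nuclear pore proteins. The labels name neither the allele nor the number of lines, and the number in a mutant title was read as a replicate although it could name an allele. The labels do not say whether replicates were grown apart, so p-values here reflect the variation among these libraries only, and that may be technical.

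In the pathway, glutamyl-tRNA is reduced and rearranged to 5-aminolevulinate (ALA), and molecules of ALA are built into protoporphyrin IX by enzymes common to all end products. At protoporphyrin IX the pathway divides: magnesium chelatase directs the porphyrin to chlorophyll and ferrochelatase directs it to heme, from which heme oxygenase and phytochromobilin synthase make bilin. The formation of ALA and the step of magnesium chelatase are the best known control points, because free intermediates produce singlet oxygen in light. In leaves *HEMA1*, *CHLH*, *CRD1* and *CAO* are known for shared control by light and the circadian clock.

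The libraries held 33273007 to 39574236 counts. The transcript of AT4G11790, the locus taken here as the mutated gene because the annotation assigns no locus the symbol *NUP50C*, was lower in nup50c (log2 fold change -1.49 with SE 0.15; edgeR, adjusted p = 0.00293). Nup50c replicate 3 lay at -47.7 on the second principal component of log2 CPM (23.3% of the variance), while the other libraries lay between -7.49 and 18.4. Markers of green tissue (0 of 5 called) had a summed level of 22399 to 23592 CPM in wild type and 21073 to 22740 in nup50c. *RBCS1A* alone held 10866 to 11906 CPM of that sum. *PSAD1* lay lower in every nup50c library (log2 fold change -0.24; edgeR, adjusted p = 0.0731) and *SBPASE* higher (0.15, adjusted p = 0.27), while the other green markers overlapped. Markers of root (0 of 7 called) summed to 117 to 135 CPM in wild type and 117 to 125 in nup50c. Of the seed markers, *CRU3* and *SESA1* had 0 counts in all libraries, and *CRA1* had 95 counts in wild-type replicate 3 and 0 elsewhere. Of the flower markers, *AP1*, *AG* and *PI* had 0 counts in all libraries, and *AP3* had 21 counts in nup50c replicate 3 and 0 elsewhere. In the FPKM table *PI* had 0.338 in wild-type replicate 3 and 0.402 in nup50c replicate 1.

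In nup50c seedlings 4 pathway genes fell and 2 rose. Those that fell were *CAO*, *GUN4*, *CHLH* and *CRD1*, which act at the insertion of magnesium, at ring closure and at the formation of chlorophyll b. Those that rose were *FC2*, a ferrochelatase of the heme branch, and *HEMC*, an enzyme of the common steps. The other 28 did not pass edgeR's quasi-likelihood test at a Benjamini-Hochberg adjusted p under 0.05, which over all 21158 genes tested called 1.17% lower and 1.12% higher (2.28% in all). At an unadjusted p under 0.05, 6 members were lower and 7 higher, where 7.98% and 8.66% of all tested genes were. Every nup50c library lay below every wild-type library for 5 members and above for 9, against 11.6% and 11.7% of all tested genes. The median log2 fold change was 0.05 over the 34 members and -0.00 over all tested genes. Of the 28 members without a call, 20 lay within 0.2 of 0. Taken without sign, the median log2 fold change was 0.14 over the members and 0.16 over all tested genes, so small values were common throughout. Without nup50c replicate 3, *CHLH*, *CRD1* and *CAO* fell and *FC2* rose. Without wild-type replicate 1, or without nup50c replicate 2, *CAO* was the only member called. In whole seedlings, fewer cells of a type and less RNA per cell cannot be told apart.

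**Figure D1:**
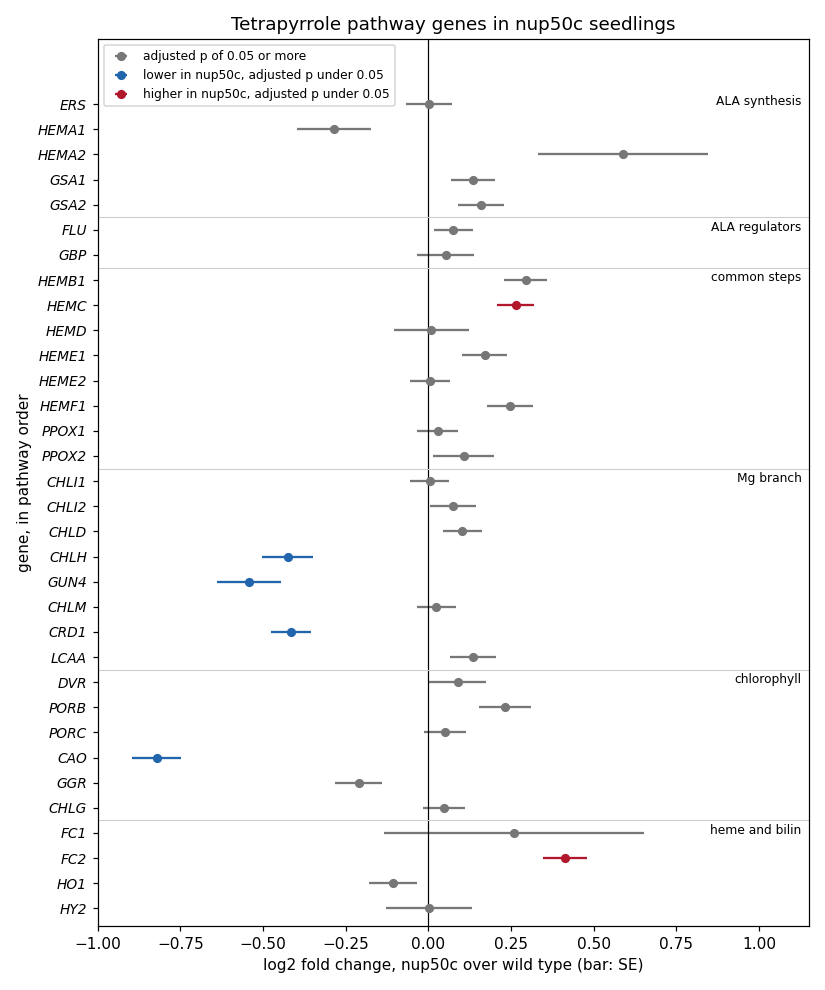
Log2 fold change of nup50c over wild type for 33 pathway genes in pathway order (points, edgeR estimate; bars, SE; 3 libraries per group; *PORA*, listed at 0 in 3 libraries, left out). *CHLH*, *GUN4*, *CRD1* and *CAO* lie left of 0 past the threshold and *HEMC* and *FC2* right of it, with most other genes close to 0.

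Sequence next to the gene start was read from the TAIR10.1 genome for genes that were called, since genes of this pathway are known to respond to light through G-boxes. The window was the 250 bases before the annotated start of the gene, and the part printed is the stretch next to the start that no other annotated gene covers. Among the windows printed, *CAO* and *CRD1* show the G-box in a fall, *FC2* shows it in a rise, and *CHLH* shows a fall without it. Of the called genes whose windows are not printed, *HEMC* rose and *GUN4* fell, both without a G-box. Members without a call held a G-box too, as given below. Capitals mark matches to any of 6 motifs searched on both strands, and no matches overlapped in these windows. The G-box is CACGTG and the evening element, known from genes expressed in the evening, is AAAATATCT. The site bound by the clock protein CCA1 is AAAAATCT. The I-box, known from light-regulated promoters, is GATAAG. The remaining motifs searched were CCAATC and the site CACGCGC, to which the light-signalling proteins FHY3 and FAR1 are known to bind.
*CAO* (chr1:16851272-16851521, minus strand): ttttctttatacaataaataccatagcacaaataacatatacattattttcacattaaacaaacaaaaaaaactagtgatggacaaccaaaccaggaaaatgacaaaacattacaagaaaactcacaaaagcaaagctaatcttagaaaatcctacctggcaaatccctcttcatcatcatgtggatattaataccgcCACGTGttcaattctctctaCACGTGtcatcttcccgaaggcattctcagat
*CRD1* (chr3:21076316-21076504, plus strand): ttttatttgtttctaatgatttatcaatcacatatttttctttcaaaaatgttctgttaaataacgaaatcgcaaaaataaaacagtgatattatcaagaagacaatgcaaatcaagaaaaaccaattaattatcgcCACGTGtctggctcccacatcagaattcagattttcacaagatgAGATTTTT
*CHLH* (chr5:4392430-4392679, minus strand): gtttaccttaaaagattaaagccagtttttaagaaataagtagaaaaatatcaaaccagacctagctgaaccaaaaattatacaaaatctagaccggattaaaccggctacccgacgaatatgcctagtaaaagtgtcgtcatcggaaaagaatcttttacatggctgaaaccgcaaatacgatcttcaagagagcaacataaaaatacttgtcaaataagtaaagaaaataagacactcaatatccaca
*FC2* (chr2:12954149-12954173, minus strand): aactgtgtggaCACGTGtggttctc

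The window of *CAO* held 2 G-boxes, the nearer one 27 to 32 bases before the start and the other 47 to 52 bases before it. *CRD1* held a G-box 47 to 52 bases before the start and a CCA1-binding site, on the opposite strand, in the last 8 bases. *FC2*, which rose, held a G-box 9 to 14 bases before the start. *GUN4*, whose window lies inside AT3G59410 and is not printed, held a CCA1-binding site and CCAATC, and the windows of *CHLH* and *HEMC* held none of the 6 motifs. Over all 34 members a G-box was present in 6 windows, those of *ERS*, *HEMD*, *CRD1*, *CAO*, *FC2* and *HY2*. Of these, *ERS*, *HEMD* and *HY2* were not called (log2 fold changes 0.00, 0.01 and 0.00). The 6 windows are 17.6% of the members, beside 6.49% of the 27443 windows of protein-coding nuclear genes, each taken over the full 250 bases. The CCA1-binding site was present in 5 members (14.7%, beside 6.69% of all windows) and the evening element in 2, *PORA* and *PORB* (5.88%, beside 2.36%). The I-box was present in 3 (8.82%, beside 12.3%), CCAATC in 3 (8.82%, beside 10.2%) and the FHY3/FAR1-binding site in 0 (beside 1.06%). These are matches of letters in a short window and not measured binding.

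Synthesis of ALA starts with *ERS* [AT5G64050], the glutamyl-tRNA synthetase of plastid and mitochondrion, which did not pass, with means in CPM, the TMM-normalized share of a library's counts, that hardly differed (92.1 CPM in wild type and 92.3 in nup50c, log2 fold change 0.00, adjusted p = 0.989). *HEMA1* [AT1G58290] encodes the main glutamyl-tRNA reductase of green tissue, the committed step of the pathway. Its single libraries held 337, 275 and 358 CPM in the wild-type libraries against 269.8, 237 and 290.0 in the nup50c ones. The groups overlapped, because wild-type replicate 2 lay below nup50c replicate 3, and the mean went from 324 ± 43.5 to 266 ± 26.8 CPM (± SD over 3 libraries; log2 fold change -0.28 with SE 0.11; edgeR, adjusted p = 0.25). *HEMA2* [AT1G09940], the second reductase, known mainly from roots and from stress, held 25.1, 30.3 and 24.1 CPM in the wild-type libraries against 35.7, 28.2 and 55.8 in the nup50c ones. Nup50c replicate 3 stood highest, nup50c replicate 2 lay within the wild-type range, and the gene did not pass (log2 fold change 0.59 with SE 0.26; edgeR, adjusted p = 0.327). Without nup50c replicate 3 the log2 fold change of *HEMA2* was 0.27 (adjusted p = 0.383). The 2 aminomutases that finish ALA had small values above 0, *GSA1* [AT5G63570] (190.1 CPM in wild type and 209 in nup50c, log2 fold change 0.14, adjusted p = 0.356) and *GSA2* [AT3G48730] (246 CPM in wild type and 275 in nup50c, log2 fold change 0.16, adjusted p = 0.295).

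The proteins that hold back or stabilise glutamyl-tRNA reductase did not pass the test. *FLU* [AT3G14110], the negative regulator that shuts ALA synthesis down in the dark, had 111, 118 and 118 CPM in the wild-type libraries against 119, 125 and 121 in the nup50c ones. All nup50c libraries lay above all wild-type libraries, by little (log2 fold change 0.07 with SE 0.06; edgeR, adjusted p = 0.601). *GBP* [AT3G21200], listed in the files as *PGR7*, encodes a protein that binds the reductase at the membrane. It had 69.7, 74.9 and 85.6 CPM in the wild-type libraries against 83.4, 80.3 and 74.9 in the nup50c ones, and its groups overlapped (log2 fold change 0.05 with SE 0.09; edgeR, adjusted p = 0.837).

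In the common steps from ALA to protoporphyrin IX, 1 of 8 members rose and 7 did not pass. All 8 log2 fold changes were above 0, between 0.01 and 0.29. Over all members 26 of 34 were above 0, and over all tested genes 10472 of 21158. Those of *HEMD*, *HEME2* and *PPOX1* changed sign when certain single libraries were left out. *HEMC* [AT5G08280] encodes porphobilinogen deaminase, which links the pyrrole units into a chain. It held 347, 377 and 369 CPM in the wild-type libraries against 449, 432 and 433 in the nup50c ones, so that the groups did not overlap, and went from 365 ± 15.5 to 438 ± 9.08 CPM (± SD over 3 libraries; log2 fold change 0.26 with SE 0.06; edgeR, adjusted p = 0.0466). It missed the threshold whichever library was left out (edgeR adjusted p from 0.0595 to 0.193), with log2 fold changes between 0.23 and 0.29, and in limma on log2(FPKM + 1) without a filter (adjusted p = 0.051). *HEMB1* [AT1G69740], 5-aminolevulinate dehydratase, the enzyme before it, held 179, 193 and 202 CPM in the wild-type libraries against 239.5, 224 and 239.6 in the nup50c ones. Its groups did not overlap either, and its log2 fold change was no smaller than that of *HEMC*, but it missed the threshold (log2 fold change 0.29 with SE 0.06; edgeR, adjusted p = 0.0526). *HEMF1* [AT1G03475], coproporphyrinogen oxidase (218 CPM in wild type and 259 in nup50c, log2 fold change 0.25, adjusted p = 0.114), and *HEME1* [AT3G14930], one of the uroporphyrinogen decarboxylases (189 CPM in wild type and 212 in nup50c, log2 fold change 0.17, adjusted p = 0.253), also had nup50c libraries above all wild-type libraries. *HEME2* [AT2G40490] (216 CPM in wild type and 216 in nup50c, log2 fold change 0.01, adjusted p = 0.979) and *HEMD* [AT2G26540], uroporphyrinogen synthase (37.2 CPM in wild type and 37.5 in nup50c, log2 fold change 0.01, adjusted p = 0.982), had overlapping groups. So had the protoporphyrinogen oxidases *PPOX1* [AT4G01690] (175 CPM in wild type and 178 in nup50c, log2 fold change 0.03, adjusted p = 0.887) and *PPOX2* [AT5G14220] (36.4 CPM in wild type and 39.2 in nup50c, log2 fold change 0.11, adjusted p = 0.642).

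In the magnesium branch, up to protochlorophyllide, 3 of 8 members fell and 5 did not pass. Magnesium chelatase is built of the subunits I, D and H, of which the H subunit passed the test. *CHLH* [AT5G13630] (*GUN5*), the large porphyrin-binding subunit, held 1539.8, 1375 and 1658 CPM in the wild-type libraries against 1151, 1065 and 1190.4 in the nup50c ones. The highest nup50c library lay below the lowest wild-type library, and the mean went from 1524 ± 142 to 1135 ± 64.2 CPM (± SD over 3 libraries; log2 fold change -0.43 with SE 0.08; edgeR, adjusted p = 0.0272). The ATPase subunit *CHLI1* [AT4G18480] had 409, 394 and 422 CPM in the wild-type libraries against 431, 399 and 397 in the nup50c ones, with overlapping groups (log2 fold change 0.00 with SE 0.06; edgeR, adjusted p = 0.986). *CHLI2* [AT5G45930], its minor copy (73.8 CPM in wild type and 77.7 in nup50c, log2 fold change 0.08, adjusted p = 0.668), and *CHLD* [AT1G08520], the bridging subunit (257 CPM in wild type and 275 in nup50c, log2 fold change 0.10, adjusted p = 0.444), did not pass. Whether the subunits differ from each other in their change was not tested. *GUN4* [AT3G59400], the porphyrin-binding protein that activates the chelatase, held 170.0, 141 and 162 CPM in the wild-type libraries against 122, 103 and 99.9 in the nup50c ones. It did not overlap between the groups and went from 158 ± 15.1 to 108 ± 12.2 CPM (± SD over 3 libraries; log2 fold change -0.54 with SE 0.10; edgeR, adjusted p = 0.0265). Leaving out a single library ended the call of *CHLH* for wild-type replicate 1 (adjusted p = 0.139 by edgeR), replicate 3 of the wild type (0.0719), and mutant replicates 1 (0.0708) and 2 (0.11). For *GUN4* the same held for wild-type replicates 1 (0.151) and 3 (0.082) and mutant replicates 2 (0.116) and 3 (0.0568).

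After the chelatase, *CHLM* [AT4G25080] adds a methyl group to magnesium protoporphyrin, and its level differed little (319 CPM in wild type and 324 in nup50c, log2 fold change 0.02, adjusted p = 0.9). *CRD1* [AT3G56940] (*CHL27*) encodes the diiron subunit of the cyclase that closes the fifth ring, and its upstream G-box is printed above. It held 1362, 1225 and 1332 CPM in the wild-type libraries against 1015, 939 and 982 in the nup50c ones. All nup50c libraries lay below all wild-type libraries, and the mean went from 1306 ± 71.9 to 979 ± 38.4 CPM (± SD over 3 libraries; log2 fold change -0.42 with SE 0.06; edgeR, adjusted p = 0.0116). It missed the threshold when wild-type replicate 1 (adjusted p = 0.0698 by edgeR) or mutant replicate 2 (0.0597) was left out. *LCAA* [AT5G58250], the YCF54 protein that works with the cyclase, did not pass, and its value lay above 0 (154 CPM in wild type and 169 in nup50c, log2 fold change 0.13, adjusted p = 0.384).

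*GUN4* lies on the minus strand of chromosome 3, bases 21948501 to 21949796, in the TAIR10.1 annotation. AT3G59410 overlaps 946 bases of it on the other strand, had a mean of 135 CPM and gave a log2 fold change of -0.41 (adjusted p = 0.061). The labels call the libraries strand-specific, but no source used here states whether strand entered the counting, and reads of these 2 genes could not be told apart if it did not. *CRD1* on the plus strand of chromosome 3, bases 21076505 to 21078443, is overlapped on the other strand by AT3G08795 (0.653 CPM) and, over 147 bases, by AT3G56950 (41.5 CPM). *CHLH* on the minus strand of chromosome 5, bases 4387307 to 4392429, and *FC2* on the minus strand of chromosome 2, bases 12950954 to 12954148, are overlapped by no other annotated gene. *CAO* on the minus strand of chromosome 1, bases 16848308 to 16851271, shares 36 bases with AT1G44414 on the other strand. Of the 34 members, 4 are overlapped by another annotated gene on the same strand, *FC1* among them, and 16 on the other strand.

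**Figure D2:**
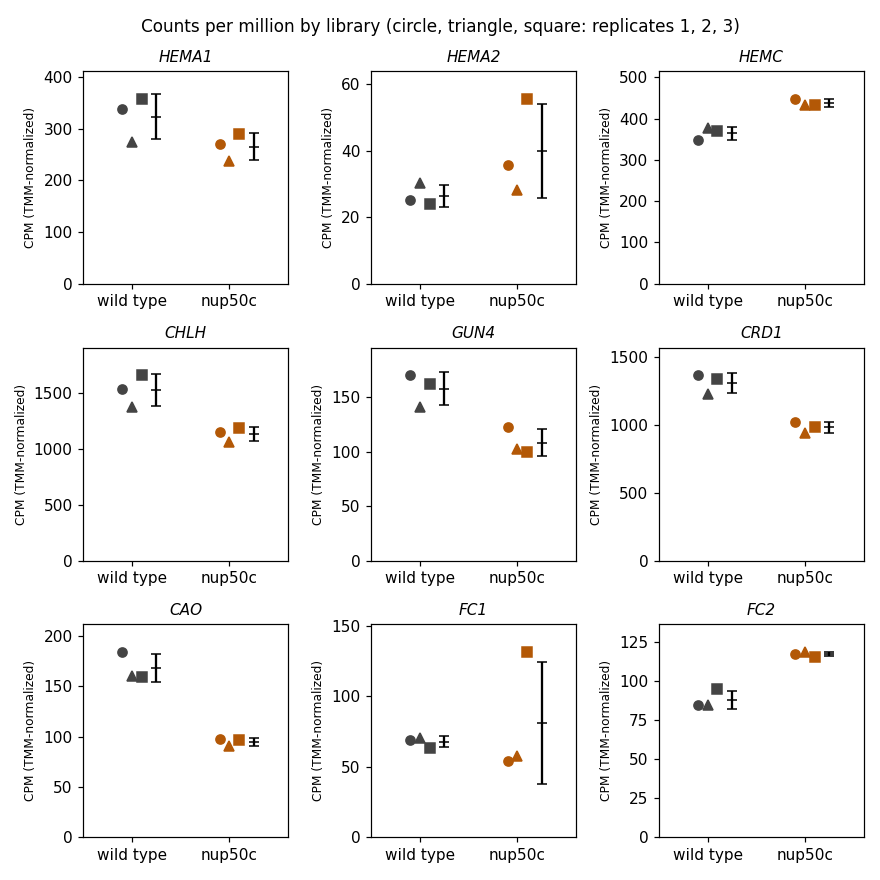
TMM-normalized CPM in each library for 9 pathway genes (symbols, libraries; horizontal mark and bar, mean and SD of 3 libraries; axes start at 0). The groups are apart for *HEMC*, *CHLH*, *GUN4*, *CRD1*, *CAO* and *FC2*, overlap for *HEMA1* and *HEMA2*, and for *FC1* a single nup50c library stands far above the rest.

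Of the 7 members from protochlorophyllide to chlorophyll, 1 fell and 6 did not pass. *CAO* encodes chlorophyllide a oxygenase, the enzyme that makes chlorophyll b. In the files this locus, AT1G44446, carries the symbol *CH1*, while the symbol CAO is given there to AT2G47450, a gene of chloroplast protein targeting. *CAO* held 184, 160.2 and 159 CPM in the wild-type libraries against 97.8, 90.6 and 96.5 in the nup50c ones. The mean went from 168 ± 13.9 to 95.0 ± 3.84 CPM (± SD over 3 libraries; log2 fold change -0.82 with SE 0.07; edgeR, adjusted p = 0.00208), a level 1.77-fold lower in nup50c. Its upstream window is the one with 2 G-boxes printed above. *CAO* ranked 14th by p among the 21158 tested genes, was called in all 14 alternative settings, and was the only member of the 6 called that kept its call without each library in turn (edgeR adjusted p from 0.00394 to 0.018).

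*DVR* [AT5G18660], the divinyl reductase (100.1 CPM in wild type and 106 in nup50c, log2 fold change 0.09, adjusted p = 0.684), and *CHLG* [AT3G51820], which attaches the phytol tail (181 CPM in wild type and 187 in nup50c, log2 fold change 0.05, adjusted p = 0.789), did not pass. *GGR* [AT1G74470], geranylgeranyl reductase, which makes that tail, held 1185, 1111 and 1220.4 CPM in the wild-type libraries against 1103, 941 and 994 in the nup50c ones, without overlap but also without a call (log2 fold change -0.21 with SE 0.07; edgeR, adjusted p = 0.173). The light-dependent protochlorophyllide oxidoreductases, which make chlorophyllide, have 3 genes, and none of them passed. *PORB* [AT4G27440], the main form in green seedlings, held 535, 653 and 575 CPM in the wild-type libraries against 683, 662 and 728 in the nup50c ones, with every nup50c library above every wild-type library (log2 fold change 0.23 with SE 0.08; edgeR, adjusted p = 0.177). *PORC* [AT1G03630], a form known for expression in light-grown mature tissue, held 156, 169 and 164 CPM in the wild-type libraries against 175, 159.6 and 172 in the nup50c ones, and its groups overlapped (log2 fold change 0.05 with SE 0.06; edgeR, adjusted p = 0.766). *PORA* [AT5G54190], known from etiolated seedlings, was listed at 63, 0 and 34 counts in wild type and at 0, 32 and 0 in nup50c. A 0 beside such counts in a replicate can be a failed estimate, so no fold change is given for *PORA*. Reads could be split between the *POR* copies and between *CHLI1* and *CHLI2* in counting.

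In the heme and bilin branch, 1 of 4 members rose and 3 did not pass. *FC2* [AT2G30390], the ferrochelatase known mainly from green tissue and photosynthetic heme, held 84.3, 84.4 and 94.5 CPM in the wild-type libraries against 117, 118 and 115 in the nup50c ones. The nup50c libraries lay close together above all wild-type libraries, and the mean went from 87.8 ± 5.87 to 117 ± 1.39 CPM (± SD over 3 libraries; log2 fold change 0.41 with SE 0.07; edgeR, adjusted p = 0.0183). It missed the threshold when wild-type replicate 1 (adjusted p = 0.107 by edgeR) or 2 (0.0849), or mutant replicate 1 (0.055) or 2 (0.0818), was left out. *FC1* [AT5G26030], the ferrochelatase found in all tissues and known to be induced by wounding and stress, held 69.2, 70.7 and 63.4 CPM in the wild-type libraries against 54.3, 57.9 and 131 in the nup50c ones. In nup50c its CPM was lowest in replicates 1 and 2, below all wild-type libraries, and highest in replicate 3 (log2 fold change 0.26 with SE 0.39; edgeR, adjusted p = 0.826). In the deposited FPKM, however, nup50c replicate 2 (33.8) lay within the wild-type range (32.6 to 34.3). Without nup50c replicate 3 the sign turned, to a log2 fold change of -0.27 (adjusted p = 0.135). *FC1* and *HEMA2* were the 2 members, *PORA* aside, with a coefficient of variation over 20% in nup50c (53.5% and 35.7%), and in wild type none exceeded it.

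*HO1* [AT2G26670] (*HY1*), the heme oxygenase that opens the ring on the way to the phytochrome chromophore, held 95.0, 101 and 89.3 CPM in the wild-type libraries against 87.5, 83.5 and 93.5 in the nup50c ones, with overlapping groups (log2 fold change -0.11 with SE 0.07; edgeR, adjusted p = 0.526). *HY2* [AT3G09150], phytochromobilin synthase, the last step of that path, was among the lowest members, with 19.3, 18.2 and 22.2 CPM in the wild-type libraries against 20.4, 22.1 and 17.3 in the nup50c ones (log2 fold change 0.00 with SE 0.13; edgeR, adjusted p = 0.997).

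Levels can be compared between genes per length, in the deposited FPKM (by definition, fragments scaled by transcript length and library size). FPKM did not follow CPM by a fixed factor for every gene. *FC1* held 69.2 CPM and 33.6 FPKM in wild-type replicate 1, and 57.9 CPM and 33.8 FPKM in nup50c replicate 2. Between the same libraries *FC2* rose in both measures, from 84.3 to 118 CPM and from 38.4 to 55.1 FPKM. Levels and ratios in FPKM carry this limit. Over all 6 libraries *CRD1* was highest with a mean of 696 FPKM, followed by *GGR* (476), *PORB* (355) and *CHLH* (254), and these 4 genes held 40.6% of the summed FPKM of the 34 members. The member median was 93.1 FPKM. The lowest members above 0 in all libraries were *HY2* (11.8), *PPOX2* (13.5) and *HEMA2* (13.7). *CRD1* and *CHLH*, which fell, thus stand among the highest members, and *CAO* (73.3 FPKM in wild type and 42.0 in nup50c) stands 25th of 34. The summed FPKM of all 34 members was 4386 to 4585 in wild type and 4210 to 4480 in nup50c, and these ranges overlapped. In summed CPM, which is not per length, every nup50c library (8364 to 9020) lay below every wild-type library (9044 to 9731). Neither sum was tested. Without *PORA*, the median coefficient of variation between replicates was 5.92% in wild type and 4.92% in nup50c.

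**Figure D3:**
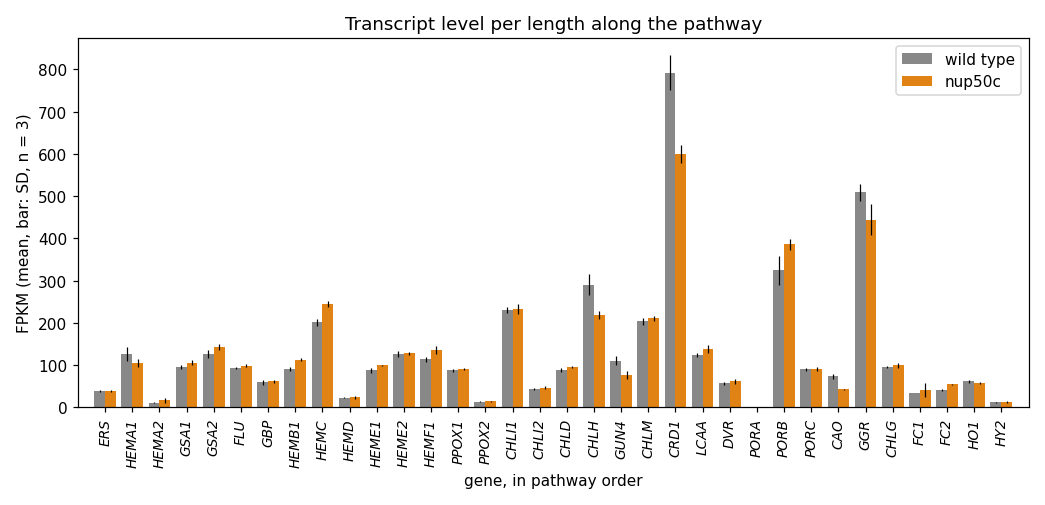
Deposited FPKM of the 34 pathway genes in pathway order (bars, mean of 3 libraries; lines, SD; axis from 0). *CRD1*, *GGR*, *PORB* and *CHLH* are the highest members, and *PORA* is near 0.

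Where 2 loci encode the same enzyme, the ratio of their FPKM within a library compares the transcript levels of the copies, and 7 such pairs were examined. With 3 libraries against 3 the exact two-sided permutation test cannot go below p = 0.1, so no pair could pass, and the adjusted p over the 7 pairs ran from 0.233 to 0.6. The ratio of *HEMA1* to *HEMA2* was 12.8, 8.64 and 14.2 for the wild-type libraries and 7.19, 7.99 and 4.95 for the nup50c ones. All nup50c values lay below all wild-type values, the lowest in replicate 3, and the log2 ratio differed by -0.82 (exact permutation p = 0.1, n = 3 each). The ratio of *PORB* to *PORC* was 3.32, 3.85 and 3.68 for the wild-type libraries and 4.01, 4.40 and 4.47 for the nup50c ones (difference 0.25 in log2, exact p = 0.1). By counts, the log2 fold changes of *PORB* and *PORC* were 0.23 and 0.05. The ratio of *HEME1* to *HEME2* was 0.681, 0.691 and 0.706 for the wild-type libraries and 0.790, 0.735 and 0.802 for the nup50c ones (difference 0.16, exact p = 0.1). In these pairs, too, the groups did not overlap. *CHLI1* exceeded *CHLI2* by 4.68 to 5.39 times in all libraries, and *PPOX1* exceeded *PPOX2* by 5.91 to 7.21 times. Reads could be split between the copies in the ratios of *CHLI1* to *CHLI2* and of *PORB* to *PORC*. *GSA1* to *GSA2* stayed between 0.73 and 0.769 (exact p = 0.3). The ratio of *FC1* to *FC2* was 0.873, 0.887 and 0.764 for the wild-type libraries and 0.559, 0.614 and 1.13 for the nup50c ones, so that *FC2* exceeded *FC1* in every library except nup50c replicate 3.

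At protoporphyrin IX the magnesium and iron branches compete for 1 substrate. The FPKM ratio of *CHLH* to *FC2*, a pair chosen after both calls were known, was 7.65, 6.81 and 7.34 for the wild-type libraries and 4.12, 3.77 and 4.32 for the nup50c ones. The means were 7.27 ± 0.422 and 4.07 ± 0.276 (SD, n = 3 each), without overlap (exact permutation p = 0.1, the smallest this design allows). This ratio restates the opposite calls of its 2 genes and is no separate evidence.

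**Figure D4:**
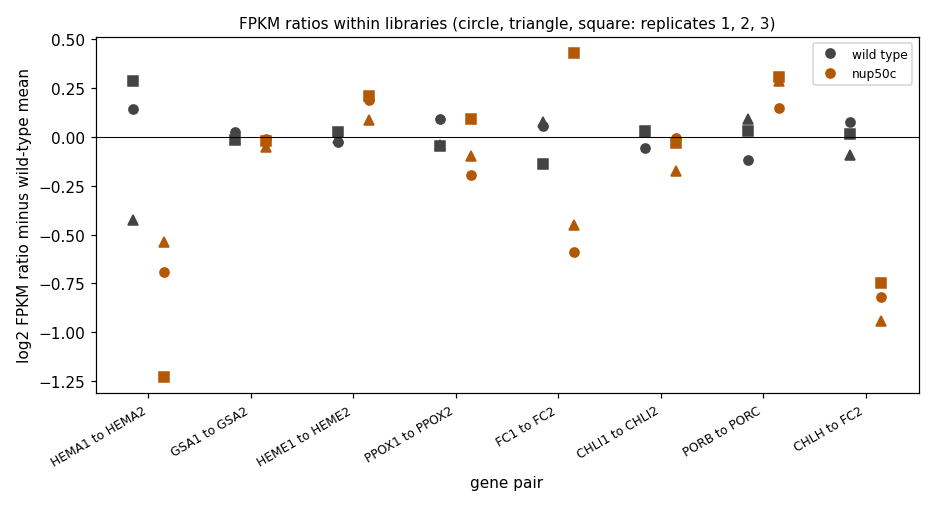
FPKM ratio of 7 pairs of copies and of *CHLH* to *FC2* in each library, as log2 minus the wild-type mean (symbols, replicates; grey, wild type; orange, nup50c). The nup50c values of *CHLH* to *FC2* lie together well below wild type, those of *HEMA1* to *HEMA2* lie below it and are spread, and those of *FC1* to *FC2* fall on both sides.

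Among 14 listed genes of side branches and regulation that were measured and are not members, 1 fell, 0 rose and 13 did not pass. The one that fell was AT4G17840, annotated as a CAAX protease self-immunity protein, from 75.2 ± 7.40 to 44.9 ± 3.61 CPM (log2 fold change -0.74 with SE 0.09; edgeR, adjusted p = 0.00774). The others include genes of the branch to siroheme, the heme oxygenase genes *HO2* and *HO3*, and *GUN1*, which acts in signalling from plastid to nucleus. The median log2 fold change of the 14 was -0.06, with 7 above 0 and 7 below. At an unadjusted p under 0.05 (edgeR), 5 of the 14 were lower and 1 higher, beside 7.98% and 8.66% of all tested genes.

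Of 9 transcriptional regulators of chlorophyll genes, *GLK2* fell and 8 did not pass. *GLK2* encodes a factor known to activate genes of chlorophyll synthesis and light harvesting. It held 89.0, 63.2 and 75.2 CPM in the wild-type libraries against 52.0, 49.6 and 45.2 in the nup50c ones, without overlap (log2 fold change -0.63 with SE 0.12; edgeR, adjusted p = 0.0367). Its partner *GLK1* did not pass (93.3 CPM in wild type and 80.8 in nup50c, log2 fold change -0.21, adjusted p = 0.265), and neither did *HY5*, an activator of light-induced genes (17.9 CPM in wild type and 16.8 in nup50c, log2 fold change -0.09, adjusted p = 0.843). The call of *GLK2* ended when any library other than wild-type replicate 2 was left out (edgeR adjusted p from 0.0792 to 0.127). *GLK1* and *HY5* are named for contrast, chosen after their values were seen.

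The clock genes examined as a reference, both of them, differed between the same groups of libraries as these pathway genes. *CCA1*, a morning factor, held 83.5, 65.9 and 69.6 CPM in the wild-type libraries against 27.1, 26.6 and 23.6 in the nup50c ones. *TOC1*, an evening factor, held 62.6, 80.9 and 73.5 CPM in the wild-type libraries against 113, 115 and 128 in the nup50c ones. Both passed the edgeR test (adjusted p = 0.000833 and 0.00951). No source used here gives the hour at which either group was harvested. Time of day thus cannot be told apart from genotype for any gene here, the called *CHLH*, *CRD1*, *CAO*, *GUN4*, *FC2*, *HEMC* and *GLK2* included. The part of the clock in these results was not tested.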

How the data were processed

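The authors deposited whole-number counts per gene and FPKM per gene, and the build TAIR10, HISAT2 2.0.4 and HTSeq 0.6.1p1 appear, per the submitters' processing notes, without a role. Per the labels' protocols, RNA came from about 50 mg of seedlings and the libraries kept strand. The sources used here state neither the program that wrote each table, nor the use of strand in counting, nor the total behind the deposited FPKM. Zeros were frequent in the deposited counts, with 57420 values of 0 and 40 of 1 among 185190, so a 0 was treated as a possible failed estimate. Groups came from sample titles.

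The edgeR package 4.0.16 (R 4.3.3) was run on the counts (filterByExpr with at least 10 counts and 15 in total, TMM, robust quasi-likelihood F test, no covariate), and the threshold was 0.05 after Benjamini-Hochberg adjustment over 21158 genes. SEs were computed from the moderated F and the log2 fold change. The common biological coefficient of variation was 22%. The test was also run on simulated counts, where false calls over all genes were more frequent than the threshold implies. The criterion of that check was then changed, after this was seen, to genes above 0 in every library. Ratios used deposited FPKM with an exact two-sided permutation test. Alternatives were DESeq2 1.42.0, other scaling and filters, limma 3.58.1 on log2(FPKM + 1) and log2(FPKM + 0.1), a replicate block, and leaving out each library. Libraries of 1 group differed from each other beyond sampling noise (chi-square averaged over genes, 14.7 to 30.1 across pairs of libraries), and none is a duplicate. Totals were 33273007 to 39574236 counts per library.

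Positions and sequence came from RefSeq's TAIR10.1, matched by locus for 34 of 34 members. Windows count bases before the annotated gene start. The rule for members uses locus identifiers alone, but members and lists were chosen with earlier results of these data known. All members were named, with values per library for called genes and for the entry, branch and regulatory points, and genes outside the pathway when called or when used as a reference for tissue or clock. Outside that rule, *GLK1* and *HY5* were named after their values were seen.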

Additional observations from a re-analysis of the deposited data

How the results depend on the processing

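The count of members that rose was 4 with DESeq2 (*HEMB1*, *HEMC*, *HEMF1*, *FC2*) beside 2 with edgeR, and ran from 0 to 1 without each library in turn. The count that fell, 4, ran from 1 to 4 without each library. DESeq2 also called *GGR* lower, and *HEMB1* was called higher among genes with at least 10 counts in every library and in the 3 FPKM settings, in one of which, without a filter, *HEMC* lost its call (adjusted p = 0.051 by limma). Over all genes, 483 were called by edgeR, 1278 by DESeq2, 772 with at least 10 counts in every library and 108 to 438 without each library. No cause was tested for these differences. Without each library, fewer samples were fitted.

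Same-numbered libraries did not deviate together (correlations of -0.0239, -0.149 and -0.134), so the numbers were not read as pairs. With a replicate block 31 genes were called, among the members 0 higher and 1 lower (*CAO*, adjusted p = 0.0333).

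Log2 fold changes near 0 changed sign for members without a call. With at least 10 counts in every library *ERS* had -0.000762 and *HY2* -0.00166, and with the block *HY2* had -0.000369. Without each library, *ERS* ran from -0.0498 to 0.0315, *HY2* from -0.0808 to 0.0939, *GBP* from -0.0133 to 0.14, *HEMD* from -0.0573 to 0.12, *HEME2* from -0.0402 to 0.0326, *PPOX1* from -0.00829 to 0.0576, *CHLI1* from -0.0349 to 0.0284, *CHLG* from -0.000994 to 0.0758 and *FC1* from -0.27 to 0.48. Of the genes outside the pathway *HY5* ran from -0.24 to 0.0424. The cause was not tested. No ratio of *PORB* to *PORA* was computed, since *PORA* was listed at 0 in 3 libraries. Intervals of single values are limited by 3 libraries a group.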
